A study of Homo sapiens with 6 samples.

Results

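The 44 genes described here encode glucose transporters, the enzymes of glycolysis and lactate formation, the regulators of its rate, the enzymes of glycogen metabolism and part of the pentose phosphate pathway. They were chosen by symbol, with earlier results of these data known, and all 44 were found among the 27754 genes of the deposited tables. RNA was sequenced from T47D cells, a line of human breast cancer cells with luminal features, with 3 libraries from cells in normoxia (20% O2, the control) and 3 from cells kept for 48 h in hypoxia (0.5% O2 in the labels; the text of the study names a higher oxygen level for this experiment). All cells were of the same line and grown in the same medium with serum. The labels do not say whether the numbered replicates came from separate cultures, while the study describes its replicates in general as independent experiments. The p-values measure the spread between these libraries.

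The libraries held between 32989104 and 89883409 counts, with hypoxia replicate 3 the deepest, and a floor of 3 counts was worth 0.0328 CPM (counts scaled to a library of the same size) in the deepest and 0.0969 CPM in the shallowest library. That floor covers counting error only. Of 10 markers of luminal breast cells, all had at least 10 counts in every library, with summed levels of 13955 to 18116 CPM in normoxia and 10191 to 13468 CPM in hypoxia. The 13 basal and mesenchymal markers summed to between 130.02 and 139.9 CPM in normoxia and between 178.8 and 196.3 CPM in hypoxia. The 9 blood and endothelial markers summed to between 2.45 and 2.5 CPM in normoxia and between 9.09 and 10.99 CPM in hypoxia, with HBB at 0 counts in every library. Vimentin (VIM) set the libraries numbered 3 apart, since its counts in replicates 1, 2 and 3 were 7, 12 and 395 in normoxia and 35, 35 and 1001 in hypoxia. The part of these markers in the results was not tested. For 7 genes known to respond to low oxygen, the summed level was 117 to 143 CPM in normoxia and 1780 to 1908 CPM in hypoxia.

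Glycolysis splits glucose into pyruvate and yields ATP without oxygen, and lactate dehydrogenase then turns pyruvate into lactate and restores the NAD+ that the pathway needs. Many steps are served by several isozymes, which are encoded by separate genes and differ in tissue, kinetics and regulation. Cells short of oxygen are known to stabilize hypoxia-inducible factors, transcription factors that act on many of these genes. Glycogen stores glucose units, and the pentose phosphate pathway uses glucose 6-phosphate to make NADPH and ribose.

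Levels are given as reads scaled to library size and to the length of the counted exons (RPKM, with TMM normalization), so that genes of different length can be compared. Values of a group are listed in the order of replicates 1, 2 and 3. Changes are log2 fold changes of hypoxia over normoxia with their standard error (SE), and adjusted p-values are from edgeR's quasi-likelihood test with Benjamini-Hochberg adjustment over all 15657 genes that passed the filter on low counts. Since RNA was taken from whole cultures, a change in the number of cells with a transcript and a change in its amount per cell cannot be told apart.

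More of these genes rose than fell in hypoxia, led by a regulatory subunit of glycogen metabolism (PPP1R3C), the glucose transporters SLC2A3 and SLC2A12, PFKFB4 and liver glycogen phosphorylase (PYGL). PPP1R3C, SLC2A3, SLC2A12 and PFKFB1 had fewer than 10 counts in every normoxia library and passed the filter only through the hypoxia libraries. They could be called higher or miss the threshold, but could not be called lower. PGAM2, with 26, 29 and 4 counts in normoxia, also needed the hypoxia libraries to pass the filter. All of these genes are counted below among the members that rose, and among those that rose by a log2 fold change of at least 1. No count without them is given. Of the 43 members that passed the filter, 24 rose (55.8%), 10 fell (23.3%) and 9 missed the threshold of 0.05. Among all 15657 tested genes, 30.4% rose and 29.1% fell. In either direction it was 34 members (79.1%), against 59.5% of all tested genes. With the replicate number as a block, 28 members rose and 12 fell, where 36.6% of all tested genes rose and 35.2% fell. By a log2 fold change of at least 1, 19 members rose (44.2%, against 15.2% of all tested genes) and 4 fell (9.30%, against 4.91%). The median log2 fold change was 0.57 over the tested members and 0.028 over all tested genes. In CPM, the conditions did not overlap for 34 of the 43 members (79.1%), against 67.3% of all tested genes. In each of the 43, all 3 same-numbered pairs of libraries changed in the same direction, as they did in 82.9% of all tested genes. With the upper-quartile scaling, which moved the median of all genes by 0.157, 29 members rose and 6 fell, where 38.1% of all tested genes rose and 21.0% fell. Since the members were chosen with earlier results of these data known, their excess over all tested genes cannot be told apart from that choice. Among 44 other tested genes of these pathways, 10 rose and 13 fell.

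**Figure D1:**
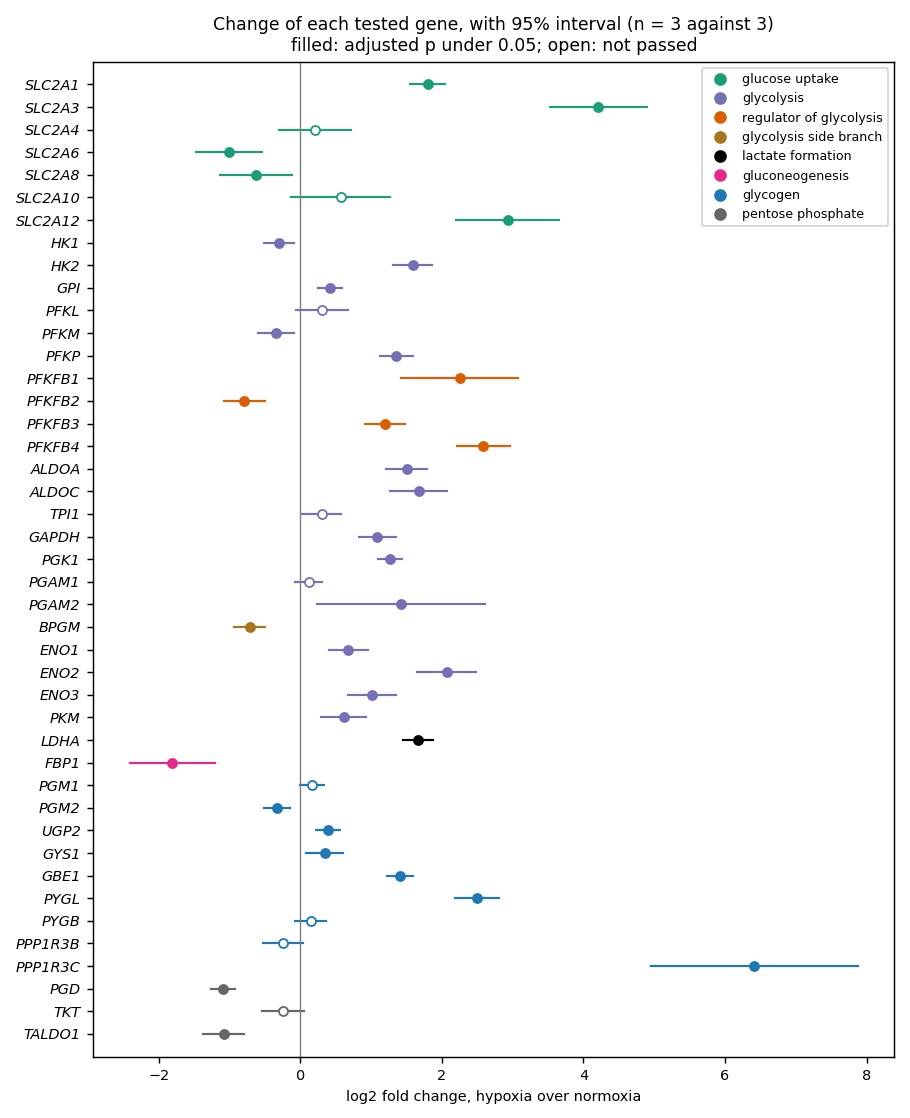
Log2 fold change of hypoxia over normoxia for the 43 tested members (points), with 95% intervals (lines), in the order of the pathway and coloured by branch. PPP1R3C lies farthest to the right at 6.41, a fitted value that rests on counts near 0 in normoxia, FBP1 lies farthest to the left at -1.81, and open points mark the 9 members that missed the threshold.

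The promoters of the members were searched for ACGTG on either strand, a form of the core of the sequence bound by hypoxia-inducible factors. The search covered the 250 bases before and 50 after the RefSeq start (GRCh38.p14), and other forms of the core were not searched. The palindrome CACGTG, which many other factors bind, holds ACGTG on both strands and was counted as 1 site. Of the 40 members with a promoter in the table, 15 (37.5%) held at least 1 site, against 21.6% of all 27305 promoters and 26.2% of those of tested genes. Among the members that rose it was 11 of 23 (47.8%), against 24.9% of the promoters of all genes that rose, and among those that fell 3 of 9 (33.3%), against 27.7%. At least 2 sites were held by 6 of the 40 members (15%), against 3.49% of all promoters and 4.77% of those of tested genes. A match of these letters is a description of the sequence and no measure of binding.

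The 5 members that rose by a log2 fold change of at least 1 and held 2 or more sites were PPP1R3C, LDHA, PGK1, HK2 and ALDOC. Their upstream sites are shown as the members chosen by this rise and by the number of sites, 3 of them from glycolysis, 1 from lactate formation and 1 from glycogen metabolism. Each line gives 30 bases of the strand of the gene, 5′ to 3′, with the site in capitals and the number of bases from the first base of the site to the start of the gene.
PPP1R3C, 159 bases before the start, reverse strand, chr10:91633213-91633242: gatagctctctgCACGTctcgccccggggc
PPP1R3C, 138 bases before the start, reverse strand, chr10:91633192-91633221: ccccggggcgatCACGTtgccggggcgagg
PPP1R3C, 45 bases before the start, reverse strand, chr10:91633099-91633128: cagggatcgggtCACGTGcttgggagcaga
LDHA, 185 bases before the start, forward strand, chr11:18394366-18394395: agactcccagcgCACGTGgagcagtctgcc
LDHA, 87 bases before the start, forward strand, chr11:18394464-18394493: cagcccgactcaCACGTGggttcccgcacg
LDHA, 73 bases before the start, forward strand, chr11:18394478-18394507: cgtgggttcccgCACGTccgccggcccccc
PGK1, 202 bases before the start, forward strand, chrX:78104034-78104063: gcggcgtgccggACGTGacaaacggaagcc
PGK1, 183 bases before the start, forward strand, chrX:78104053-78104082: aaacggaagccgCACGTctcactagtaccc
HK2, 229 bases before the start, forward strand, chr2:74833886-74833915: agccacggaccaCACGTcccatctcaggcg
HK2, 48 bases before the start, forward strand, chr2:74834067-74834096: aatgggcgtgcgCACGTcactgatccggag
ALDOC, 240 bases before the start, reverse strand, chr17:28577116-28577145: aagtgcccggCACGTGgtaaagggattgtg
ALDOC, 28 bases before the start, reverse strand, chr17:28576906-28576935: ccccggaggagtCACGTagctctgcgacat
PGK1 also held a site 29 bases after its start. The other member with 2 or more sites, PGM2, fell. Of the 18 promoters of members that rose by a log2 fold change of at least 1, 9 held at least 1 site. SLC2A1, SLC2A12, PFKFB4 and PYGL were among those that rose by this much and held no ACGTG site. The printed stretches overlap for the sites at 159 and 138 bases in PPP1R3C, 87 and 73 in LDHA and 202 and 183 in PGK1.

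Glucose enters the cell through the transporters of the SLC2A family, and 3 of the 7 members rose while 2 fell. SLC2A1 (GLUT1, the basal transporter of most cells; chromosome 1, 43391046 to 43424847, reverse strand, GRCh37) was at 15.7, 14.8 and 13.7 RPKM in normoxia and 54.3, 55.1 and 44.6 RPKM in hypoxia. All its hypoxia libraries lay far above the normoxia libraries, with a log2 fold change of 1.80 (SE 0.11, adjusted p = 3.94e-05). SLC2A3 (GLUT3, the high-affinity transporter of neurons; chromosome 12) had 5, 3 and 4 counts in normoxia and 79, 88 and 183 counts in hypoxia. It went from near the floor to 0.538 ± 0.0632 RPKM (SD, n = 3), a log2 fold change of 4.21 (SE 0.30, adjusted p = 5.53e-05), and remained far below SLC2A1. Its near-identical paralog SLC2A14 had 1, 2 and 0 counts in normoxia and 8, 20 and 50 in hypoxia, and reads shared by these genes make both counts uncertain.

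SLC2A12 (GLUT12) rose from 0.0352 ± 0.0046 to 0.269 ± 0.0652 RPKM (SD, n = 3), with 7 counts in each normoxia library. SLC2A6 and SLC2A8, transporters found mainly on internal membranes, went the other way. SLC2A6 fell from 13.8 ± 3.63 to 6.81 ± 1.24 RPKM, by 1.01 on the log2 scale (adjusted p = 0.00355), and SLC2A8 fell from 8.13 ± 1.55 to 5.22 ± 1.48 RPKM (-0.63, adjusted p = 0.0383). The SLC2A8 groups overlapped, and its call was lost with the upper-quartile scaling, with library totals alone, and without normoxia replicate 1 or 3, hypoxia replicate 1 or 2, or either of the pairs numbered 1 and 2 (adjusted p from 0.0565 to 0.219 in edgeR's test without libraries). SLC2A4 (GLUT4, the insulin-responsive transporter) was at 0.857 ± 0.183 and 0.987 ± 0.140 RPKM. SLC2A10 was at 1.48 ± 0.571 and 2.21 ± 0.481 RPKM (adjusted p = 0.137), and it passed when the replicate number was a block (adjusted p = 0.00608) and without the pair numbered 3 (0.00429).

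Among the 7 members, SLC2A1 and SLC2A6 took similar shares in normoxia, and SLC2A1 led in hypoxia. SLC2A1 took 40.0%, 42.2% and 32.1% of the summed RPKM of these members in normoxia and 78.3%, 79.3% and 70.5% in hypoxia. SLC2A11 (20.1 ± 1.03 CPM in normoxia and 21.6 ± 0.706 CPM in hypoxia; SD, n = 3) and SLC2A13 (9.42 ± 1.03 and 8.86 ± 0.891 CPM) are not members and are left out of the sum. Neither passed the threshold (adjusted p = 0.322 and 0.581). The share of SLC2A6 went from 35.0% ± 5.83 to 10.2% ± 2.45 (SD, n = 3) and that of SLC2A8 from 20.7% ± 2.00 to 7.85% ± 2.70. The 2 conditions did not overlap for any of these 3 shares. Each had an exact two-sided permutation p of 0.1, the smallest that 3 libraries against 3 allow, and an adjusted p of 0.129 over the 31 shares. The summed level of the 7 members was 39.1 ± 3.90 RPKM in normoxia and 67.4 ± 3.57 RPKM in hypoxia.

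Hexokinase traps glucose in the cell as glucose 6-phosphate, and its isozymes changed in opposite directions. HK1, the housekeeping form, was at 78.6, 73.7 and 90.03 RPKM in normoxia and 61.9, 66.5 and 68.5 RPKM in hypoxia. Its groups did not overlap, and it fell by 0.30 on the log2 scale (SE 0.09, adjusted p = 0.0245). HK2, the inducible form of muscle and many tumors (chromosome 2, 75059782 to 75120481, GRCh37), was at 4.49, 4.37 and 5.22 RPKM in normoxia and 13.03, 16.2 and 13.03 RPKM in hypoxia. Every hypoxia library held over 2 times the HK2 of any normoxia library, a log2 fold change of 1.58 (SE 0.12, adjusted p = 6.96e-05). HK1 remained the larger transcript in all libraries, but HK2 went from 5.49% ± 0.10 to 17.6% ± 1.80 of the step (SD, n = 3). The 2 together were at 85.5 ± 8.84 RPKM in normoxia and 79.7 ± 4.18 RPKM in hypoxia, and these sums overlapped. The fall of HK1 did not pass the threshold with the upper-quartile scaling or library totals alone, nor without normoxia replicate 1 or 3, hypoxia replicate 1 or 2, or either of the pairs numbered 1 and 2 (adjusted p from 0.0549 to 0.211 in edgeR's test without libraries).

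Glucose-6-phosphate isomerase (GPI), which makes fructose 6-phosphate, was at 81.9, 74.0 and 75.8 RPKM in normoxia and 103.2, 102.8 and 104 RPKM in hypoxia. The hypoxia libraries were close to each other and above all normoxia libraries, and GPI rose by 0.42 on the log2 scale (SE 0.07, adjusted p = 0.00172).

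Phosphofructokinase commits sugar to glycolysis, and of its 3 subunit genes the platelet form PFKP rose. PFKP (chromosome 10, 3109712 to 3178997, GRCh37) was at 68.9, 61.8 and 67.5 RPKM in normoxia and 152.5, 164.2 and 189.9 RPKM in hypoxia. The groups were far apart, with a log2 fold change of 1.35 (SE 0.10, adjusted p = 6.71e-05). The muscle form PFKM fell from 34.0 ± 4.26 to 26.7 ± 2.51 RPKM (SD, n = 3), by 0.34 on the log2 scale (adjusted p = 0.0281). The liver form PFKL was at 57.1 ± 7.70 and 70.6 ± 15.1 RPKM, with overlapping groups (adjusted p = 0.126, and 0.00208 with the replicate block). In normoxia PFKP was the largest of the 3 by a small margin, at 42.2% ± 2.71 of the step, and in hypoxia it held 63.5% ± 1.87. PFKM went from 21.6% ± 0.83 to 10.08% ± 0.40. The call of PFKM was lost with the upper-quartile scaling or library totals alone, without normoxia replicate 3, hypoxia replicate 1 or 2, or either of the pairs numbered 1 and 2 (adjusted p from 0.0625 to 0.173 in edgeR's test without libraries), and PFKL passed with both of those scalings and without the pair numbered 3 (0.0019). PFKM shares 230 exon bases with SENP1 on the other strand.

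The PFKFB enzymes make and remove fructose 2,6-bisphosphate, the strongest activator of phosphofructokinase, and 3 of the 4 genes rose. PFKFB3, whose kinase activity far exceeds its phosphatase activity (chromosome 10, 6186841 to 6277507, GRCh37), was at 74.1, 74.8 and 65.5 RPKM in normoxia and 160.1, 140.4 and 190.2 RPKM in hypoxia. PFKFB4 (chromosome 3, 48555117 to 48598613, reverse strand) was at 6.45, 6.30 and 4.89 RPKM in normoxia and 37.5, 40.05 and 28.5 RPKM in hypoxia. Neither gene had overlapping groups, and PFKFB4 rose by the larger factor, with a log2 fold change of 2.58 (SE 0.16, adjusted p = 4.03e-05) against 1.19 (SE 0.12, adjusted p = 2.01e-04) for PFKFB3. The log2 ratio of PFKFB4 to PFKFB3 moved from -3.59 ± 0.11 to -2.21 ± 0.48 (SD, n = 3) without overlap (exact permutation p = 0.1). PFKFB2, the heart form, fell from 5.74 ± 0.850 to 3.32 ± 0.305 RPKM (adjusted p = 0.00128). PFKFB1, the liver form, had 9, 9 and 3 counts in normoxia and 40, 39 and 70 in hypoxia, a log2 fold change of 2.25 (adjusted p = 0.0013). PFKFB3 stayed the main transcript, at 86.0% ± 1.02 of the step in normoxia and 80.4% ± 4.86 in hypoxia, shares that overlapped. PFKFB4 went from 7.04% ± 0.48 to 17.7% ± 4.51, and PFKFB2 from 6.88% ± 0.51 to 1.66% ± 0.30.

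Fructose-1,6-bisphosphatase (FBP1; chromosome 9, 97365421 to 97402531, reverse strand, GRCh37) catalyses the opposite reaction to phosphofructokinase in gluconeogenesis, and it had the largest decrease of the 43 tested members. It was at 21.05, 22.9 and 40.6 RPKM in normoxia and 7.29, 7.01 and 9.66 RPKM in hypoxia. Normoxia replicate 3 was higher than the other normoxia libraries, and all hypoxia libraries were below all of them. FBP1 fell by 1.81 on the log2 scale (SE 0.26, adjusted p = 8.12e-04).

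**Figure D2:**
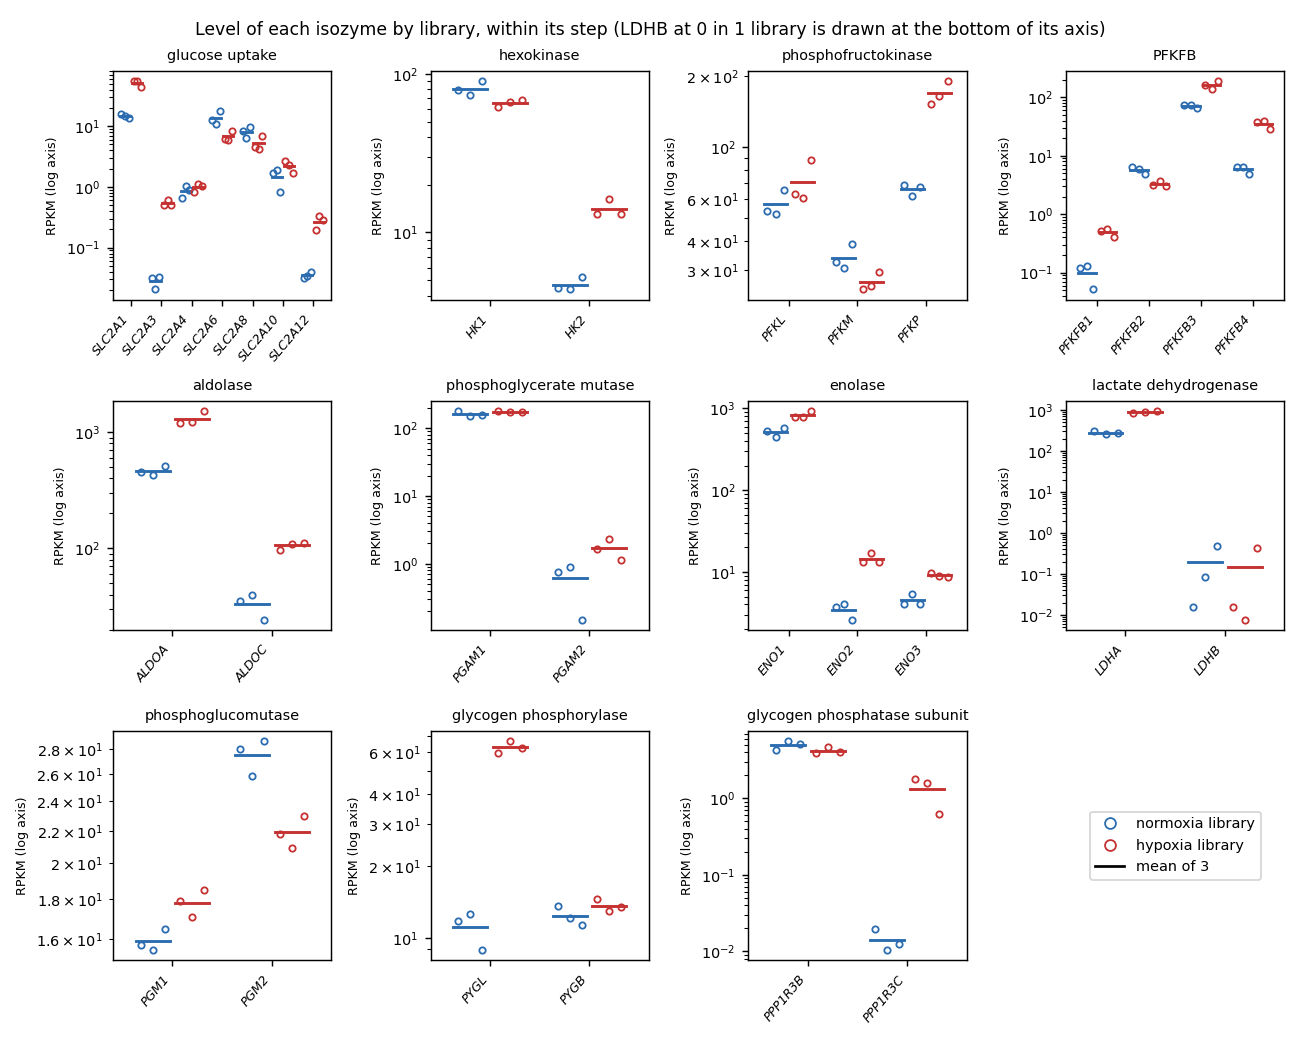
RPKM (log axis, with its own range in each panel) of every member in the 11 steps with more than 1 member, by library, with the mean of 3 libraries as a bar. HK1 and HK2, PFKM and PFKP, and PFKFB2 and PFKFB4 moved in opposite directions, while PYGL rose from the level of PYGB to well above it; 1 hypoxia library with 0 counts of LDHB is drawn at the bottom of its axis.

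Aldolase cleaves fructose 1,6-bisphosphate into 3-carbon sugars, and both of its genes rose by similar amounts. ALDOA, the muscle and general form (chromosome 16, 30064411 to 30081741, GRCh37), was at 451.7, 426 and 512.4 RPKM in normoxia and 1196, 1218 and 1516 RPKM in hypoxia. ALDOC, the brain form, was at 35.5, 40.2 and 24.4 RPKM in normoxia and 97.1, 109.5 and 112.5 RPKM in hypoxia. In both genes every hypoxia library lay above every normoxia library, with log2 fold changes of 1.5 (SE 0.12, adjusted p = 9.48e-05) for ALDOA and 1.67 (SE 0.17, adjusted p = 2.10e-04) for ALDOC. The balance of the isozymes showed no shift beyond the spread between libraries. ALDOC took 6.82% ± 2.08 of the step in normoxia and 7.56% ± 0.67 in hypoxia, with overlapping groups (exact permutation p = 0.8), and without normoxia replicate 3 the difference of these shares changed sign (-0.40 percentage points, against 0.73 with it).

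Triosephosphate isomerase (TPI1), which interconverts the products of aldolase, was at 126.2, 113.8 and 142 RPKM in normoxia and 152.1, 139.9 and 178.8 RPKM in hypoxia. Its groups overlapped, since hypoxia replicate 2 was below normoxia replicate 3, although each hypoxia library was above the normoxia library of the same number. The log2 fold change was 0.30 (SE 0.12, adjusted p = 0.0557, and 8.69e-04 with the replicate block). TPI1 passed the threshold without normoxia replicate 3 (adjusted p = 0.025), hypoxia replicate 2 (0.0415) or the pair numbered 3 (0.00142), with the edgeR exact test (0.0398), and with the upper-quartile scaling or library totals alone.

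Glyceraldehyde-3-phosphate dehydrogenase (GAPDH) and phosphoglycerate kinase (PGK1) carry out the steps that reduce NAD+ and make the first ATP gained in the pathway. GAPDH, often used as a reference gene, was at 793.1, 716.1 and 649.1 RPKM in normoxia and 1535, 1678 and 1369.8 RPKM in hypoxia. In PGK1 (chromosome X, 77359666 to 77382324, GRCh37) the levels were 185.2, 172.4 and 179.5 RPKM in normoxia and 431.4, 413.4 and 446 RPKM in hypoxia. Both genes were about 2-fold higher in hypoxia with no overlap, and the spread within a condition was small for PGK1. GAPDH rose by 1.09 (SE 0.11, adjusted p = 2.11e-04) and PGK1 by 1.27 (SE 0.07, adjusted p = 3.94e-05) on the log2 scale. The annotation names 65 pseudogenes of GAPDH and 2 of PGK1, and how reads with several matches were counted is not given in the sources used here, so their absolute levels are uncertain.

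Phosphoglycerate mutase was the step of the lower pathway with the smallest change of its main transcript. PGAM1, the general form, was at 176.6, 149 and 156.6 RPKM in normoxia and 177.6, 173 and 173.6 RPKM in hypoxia. The groups overlapped, and the log2 fold change of 0.12 had a 95% interval from -0.071 to 0.31 (adjusted p = 0.24). PGAM1 passed only with the upper-quartile scaling and with library totals alone, and the annotation names 13 pseudogenes of it. PGAM2, the muscle form, was at 0.768, 0.909 and 0.151 RPKM in normoxia and 1.67, 2.30 and 1.15 RPKM in hypoxia, a log2 fold change of 1.42 (SE 0.52, adjusted p = 0.0431). It had only 4 counts in normoxia replicate 3, and its call was lost without normoxia replicate 1, hypoxia replicate 1 or 2, or either of the pairs numbered 1 and 2 (adjusted p from 0.0723 to 0.134). Bisphosphoglycerate mutase (BPGM), a related enzyme that makes 2,3-bisphosphoglycerate in a side branch, was at 8.64, 8.75 and 9.07 RPKM in normoxia and 5.47, 5.01 and 5.6 RPKM in hypoxia. It was lower in every hypoxia library and fell by 0.72 on the log2 scale (SE 0.10, adjusted p = 5.77e-04).

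Enolase forms phosphoenolpyruvate, and all 3 of its genes rose. ENO1, the general form, was at 531.9, 449.2 and 583.1 RPKM in normoxia and 791.5, 788.6 and 923.1 RPKM in hypoxia. ENO2, the neuronal form (chromosome 12, 7023614 to 7032859, GRCh37), was at 3.72, 4.06 and 2.61 RPKM in normoxia and 13.1, 17.1 and 13.4 RPKM in hypoxia. Neither gene had overlapping groups, with log2 fold changes of 0.68 (SE 0.12, adjusted p = 0.002) for ENO1 and 2.07 (SE 0.18, adjusted p = 1.22e-04) for ENO2. ENO3, the muscle form, rose from 4.50 ± 0.768 to 9.08 ± 0.480 RPKM (SD, n = 3; adjusted p = 7.77e-04). The log2 ratio of ENO2 to ENO1 did not overlap between the conditions (exact permutation p = 0.1, the smallest possible), while that of ENO3 to ENO1 did (0.3). ENO1 still made up 98.5% ± 0.47 of the step in normoxia and 97.2% ± 0.44 in hypoxia.

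Pyruvate kinase (PKM), which makes pyruvate and ATP, was at 416.3, 369.8 and 467 RPKM in normoxia and 595.4, 558.5 and 759 RPKM in hypoxia. The groups did not overlap, and PKM rose by 0.61 on the log2 scale (SE 0.14, adjusted p = 0.0065, and 0.0577 without the pair numbered 1). Counts per gene do not separate the splice forms of PKM.

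Lactate dehydrogenase transcripts were almost entirely those of LDHA. LDHA, the form known to favour lactate formation (chromosome 11, 18415936 to 18429765, GRCh37), was at 306.8, 260.6 and 277.2 RPKM in normoxia and 863.6, 876.4 and 931 RPKM in hypoxia. All hypoxia libraries were far above the normoxia libraries, a log2 fold change of 1.66 (SE 0.09, adjusted p = 3.35e-05). LDHB, the heart form, had 1, 5 and 24 counts in normoxia and 1, 0 and 64 in hypoxia, too few to pass the filter. Its counts stood apart in the libraries numbered 3, as did those of vimentin, moesin (MSN; 60 and 166 counts against at most 21 in the others) and caveolin-1 (CAV1; 39 and 198 against at most 15). The part of those markers in the LDHB counts was not tested. LDHA made up at least 99.8% of the step in each of the 6 libraries.

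Glycogen metabolism changed at its branching, its breakdown and its regulation, and less at its synthesis. Glycogen branching enzyme (GBE1; chromosome 3, 81538850 to 81810950, reverse strand, GRCh37) was at 9.54, 8.79 and 9.47 RPKM in normoxia and 24.7, 25.8 and 23.5 RPKM in hypoxia. Glycogen synthase (GYS1), which adds glucose units, was at 21.8, 20.4 and 19.9 RPKM in normoxia and 27.4, 29.4 and 22.03 RPKM in hypoxia. UGP2, which makes the UDP-glucose that the synthase uses, was at 27.4, 27.1 and 27.1 RPKM in normoxia and 33.9, 35.5 and 37.9 RPKM in hypoxia. None of the 3 had overlapping groups, but their changes differed in size. The log2 fold change was 1.41 (SE 0.08, adjusted p = 3.65e-05) for GBE1, 0.39 (SE 0.07, adjusted p = 0.0027) for UGP2 and 0.34 (SE 0.11, adjusted p = 0.0306) for GYS1. The call of GYS1 was lost without any single library other than hypoxia replicate 3 and without the pair numbered 1 or 2 (adjusted p from 0.0656 to 0.216), and that of UGP2 without the pair numbered 1 (0.0508).

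Glycogen phosphorylase releases glucose 1-phosphate, and the balance of its isozymes shifted to PYGL. PYGL, the liver form (chromosome 14, 51371935 to 51411248, reverse strand, GRCh37), was at 11.8, 12.6 and 8.94 RPKM in normoxia and 59.4, 66.3 and 62.1 RPKM in hypoxia. PYGB, the brain form, was at 13.7, 12.1 and 11.4 RPKM in normoxia and 14.6, 12.96 and 13.5 RPKM in hypoxia. PYGL was far higher in every hypoxia library, with a log2 fold change of 2.49 (SE 0.13, adjusted p = 3.35e-05), while the PYGB groups overlapped, with a log2 fold change of 0.14 (95% interval from -0.075 to 0.36, adjusted p = 0.222; 0.0345 with the upper-quartile scaling). PYGL took 46.4%, 51.1% and 44% of the step in normoxia and 80.3%, 83.7% and 82.1% in hypoxia (exact permutation p = 0.1, the smallest possible).

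The PPP1R3 proteins bring protein phosphatase 1 to glycogen, where it activates the synthase and inactivates the phosphorylase. PPP1R3C (chromosome 10, 93388198 to 93392858, reverse strand, GRCh37), whose upstream sites are printed above, had 2, 1 and 1 counts in normoxia and 185, 151 and 147 counts in hypoxia. In RPKM this was 1.78, 1.6 and 0.625 in the hypoxia libraries, with replicate 3 the lowest. All normoxia libraries were at or under 3 counts, so the floor of 3 counts was taken for each of them. On this basis the mean CPM of PPP1R3C in hypoxia was at least 40.6-fold its mean in normoxia. This bound holds for the means and not for each library (adjusted p of the change = 1.79e-04 in edgeR's quasi-likelihood test). PPP1R3B was at 4.28, 5.55 and 5.20 RPKM in normoxia and 3.93, 4.66 and 4.05 RPKM in hypoxia. These groups overlapped (adjusted p = 0.109, 0.0164 with the replicate block and 0.0446 without normoxia replicate 1). PPP1R3C made up at most 0.458% of their summed level in a normoxia library and between 13.4% and 31.1% in the hypoxia libraries.

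Phosphoglucomutase links glycogen to glycolysis by interconverting glucose 1-phosphate and glucose 6-phosphate. PGM1 and PGM2 are grouped under this step here, but the activity of neither enzyme was measured, so their ratio and sum describe transcripts only. PGM2, with the higher RPKM, was at 28.0, 25.9 and 28.6 RPKM in normoxia and 21.8, 20.9 and 23.01 RPKM in hypoxia. It was lower in all hypoxia libraries and fell by 0.33 on the log2 scale (SE 0.08, adjusted p = 0.00811), but not with the upper-quartile scaling (0.0721) or without the pair numbered 1 (0.143). PGM1, the main form of most tissues, was at 15.9 ± 0.504 and 17.8 ± 0.696 RPKM (SD, n = 3; adjusted p = 0.0886, 0.0261 with the replicate block, 0.0358 without the pair numbered 3, 0.00514 with the upper-quartile scaling and 0.00985 with library totals alone). The log2 ratio of PGM1 to PGM2, which does not depend on the scaling of libraries, went from -0.78 ± 0.047 to -0.30 ± 0.017 with no overlap (exact permutation p = 0.1).

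Of the 3 pentose phosphate members, 2 fell. 6-phosphogluconate dehydrogenase (PGD; chromosome 1, 10459049 to 10480568, GRCh37), which yields NADPH in the oxidative branch, was at 97.2, 95.8 and 93.3 RPKM in normoxia and 45.1, 41.8 and 46.9 RPKM in hypoxia. Transaldolase (TALDO1; chromosome 11, 747432 to 765024, GRCh37), of the non-oxidative branch, was at 118 RPKM, 117.2 and 139.6 in normoxia and 55.6, 52.04 and 69.3 in hypoxia. Both were about 2-fold lower in all hypoxia libraries, with log2 fold changes of -1.10 (SE 0.07, adjusted p = 4.81e-05) and -1.08 (SE 0.13, adjusted p = 3.30e-04). Transketolase (TKT), which works with transaldolase, was at 188.8, 170.6 and 216.4 RPKM in normoxia and 150.3, 145.8 and 188.2 RPKM in hypoxia. Its groups overlapped, with a log2 fold change of -0.25 (SE 0.13, adjusted p = 0.125). Blocking on the replicate number brought TKT past the threshold (adjusted p = 0.00303), as did leaving out the libraries named here: hypoxia replicate 3 (0.0175) or the pair numbered 3 (0.00131).

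**Figure D3:**
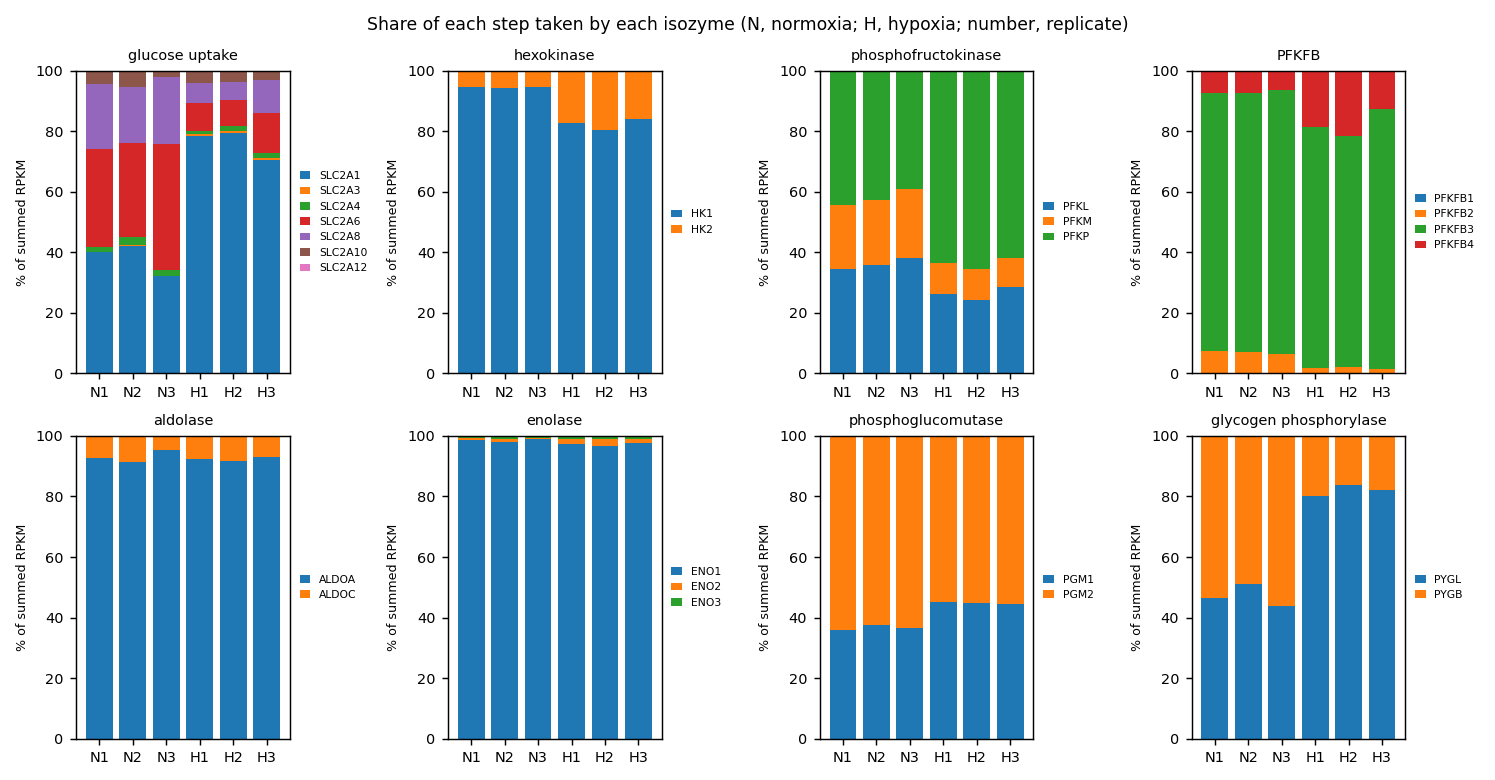
Percent of the summed RPKM of a step taken by each of its members, for 8 steps, in normoxia (N) and hypoxia (H) replicates 1 to 3. SLC2A1, HK2, PFKP, PFKFB4 and PYGL take larger shares in all hypoxia libraries, whereas the shares of ALDOA and ALDOC overlap between the conditions.

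Within steps, 19 pairs of isozymes could be compared by their log2 ratio, each with the member of the step that was highest in normoxia as the reference. The ratio did not overlap between the conditions in 15 of the 19 pairs (78.9%), close to the 72.5% found for all tested genes against the same references, so that the number of shifted pairs does not set these genes apart. The largest difference among pairs with more than 100 counts of both members in every library was that of SLC2A6 to SLC2A1, from -0.12 ± 0.44 to -2.90 ± 0.42 (SD, n = 3). The next largest were SLC2A8 to SLC2A1 (-2.43), PYGL to PYGB (2.35), PFKFB2 to PFKFB3 (-1.95) and HK2 to HK1 (1.86). The exact permutation p was 0.1 for all 15, with an adjusted p of 0.127 over the 19 pairs, so none could pass 0.05 in this design. For SLC2A3, SLC2A12 and PFKFB1, which were near the floor in normoxia, the ratio depended on the pseudocount of 0.1 RPKM or on the division by length.

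Summed over isozymes, 14 of the 24 steps were higher in all hypoxia libraries than in any normoxia library and 4 were lower, with 6 overlapping. These 18 steps without overlap were 75% of all, near the 67.3% of single tested genes, and each had an exact permutation p of 0.1 and an adjusted p of 0.133 over the 24 steps, which could not pass 0.05. The highest ratios of hypoxia to normoxia were those of glycogen phosphorylase (3.24), lactate dehydrogenase (3.16), aldolase (2.85), glycogen branching enzyme (2.66), PFKFB (2.44) and phosphoglycerate kinase (2.40). The steps that were lower were fructose-1,6-bisphosphatase (0.283), 6-phosphogluconate dehydrogenase (0.467), transaldolase (0.472) and bisphosphoglycerate mutase (0.608). Hexokinase, triosephosphate isomerase, phosphoglycerate mutase, phosphoglucomutase, the PPP1R3 pair and transketolase overlapped.

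**Figure D4:**
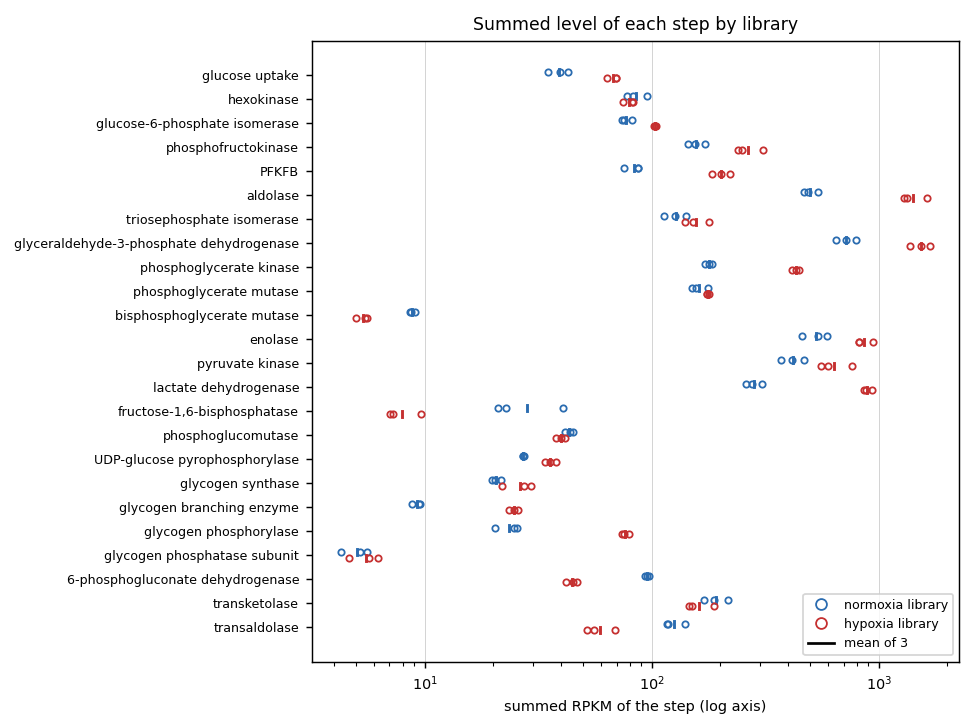
Summed RPKM (log axis) of the members of each of the 24 steps by library, with the mean of 3 libraries as a short line. Aldolase, glyceraldehyde-3-phosphate dehydrogenase, enolase and lactate dehydrogenase lie highest in hypoxia, and the hypoxia libraries of fructose-1,6-bisphosphatase, bisphosphoglycerate mutase, 6-phosphogluconate dehydrogenase and transaldolase all lie to the left of their normoxia libraries.

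The 44 members together took 1.10%, 1.01% and 1.10% of all counts in the normoxia libraries and 2.07%, 2.11% and 2.26% in the hypoxia libraries. The groups did not overlap (exact permutation p = 0.1), and the share was 1.07% ± 0.05 in normoxia and 2.15% ± 0.10 in hypoxia (SD, n = 3). The 17 genes of the glycolytic steps from hexokinase to pyruvate kinase made up most of it, at 0.805% ± 0.0429 in normoxia and 1.64% ± 0.0861 in hypoxia.

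Of 69 other genes of these pathways, 44 passed the filter, and 10 rose, 13 fell and 21 did not pass the threshold. Their median log2 fold change was -0.12, and the shares that rose and fell can be read against 30.4% and 29.1% of all tested genes. PGK2, the testis form of phosphoglycerate kinase, and GYS2, the liver form of glycogen synthase, had 0 counts in every library. In the pentose phosphate pathway, H6PD, an enzyme of the endoplasmic reticulum, rose from 28.03 ± 5.25 to 69.02 ± 5.92 CPM (SD, n = 3; log2 fold change 1.30, adjusted p = 2.59e-04). Among glycogen genes, PGM2L1, which makes glucose 1,6-bisphosphate, rose by 2.78 on the log2 scale and the phosphatase subunit PPP1R3E by 1.30. The subunit PPP1R3D and the phosphorylase kinase subunit PHKG2 fell by 1.2 and 1.03. PCK2, the mitochondrial phosphoenolpyruvate carboxykinase, rose by 1.05, with 34.3, 34.8 and 33.3 CPM in normoxia and 72.6, 52.4 and 86.01 CPM in hypoxia.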

How the data were processed

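The authors checked reads of stranded mRNA libraries with FastQC 0.11.5, removed adapters with Skewer, aligned to GRCh37/hg19 with STAR 2.5.2a and deposited counts per RefSeq gene from featureCounts 1.5.1, without normalization (tools and versions as in the submitters' processing notes and the methods of the study). Whether strand was used in counting, and what was done with multi-mapping reads, is not given in the sources used here. Of the members, 12 have pseudogenes named after them in the GENCODE annotation, and 4 share exon bases with another gene.

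The quasi-likelihood test of edgeR 4.0.16 (R 4.3.3) compared the conditions, with TMM factors and no other term in the model, over genes that filterByExpr retained (minimum count 10, minimum total count 15). The threshold was a Benjamini-Hochberg adjusted p of 0.05. Alternatives used DESeq2 1.42.0, and exact tests SciPy 1.17.1. The SE is the absolute log2 fold change divided by the square root of F. RPKM used the exon length of the files. Ratios used a pseudocount of 0.1 RPKM. The fit was also run on simulated data with a single spread for all genes and no effect of the replicate number. That run cannot show how the fit behaves where same-numbered libraries deviate together, as they did here. The study names edgeR's exact test, which was an alternative, as were other scalings, no filter, a threshold of 0.01, and libraries left out.

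Replicate numbers 1, 2 and 3 recur in both conditions in the labels, and the study calls the samples paired. Same-numbered libraries deviated together from their condition means (correlations across genes of 0.338, 0.422 and 0.575), so values with the replicate number as a block are given where a call changed. Replicates of a condition differed by more than sampling noise (chi-square per degree of freedom of at least 6.09).

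Members, lists and tests were chosen with earlier results of these data known. Values in every library are given for single-member steps and for the member of each step with the highest RPKM in either condition or the largest absolute log2 fold change. From the other pathway genes, genes past the threshold are named where the log2 change was 1 or more in size and the mean count 100 or more. Of these, 1 gene is not reported here. LDHB, SLC2A11, SLC2A13, SLC2A14, MSN, CAV1 and the genes named at 0 counts were added after their values were seen. Promoters are those of RefSeq, 1 per symbol.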

Additional observations from a re-analysis of the deposited data

How the results depend on the processing

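Over 16 alternative fits none of the 43 tested members changed direction, and 27 kept their side of the threshold in all of them (20 higher, 6 lower, 1 not passed). With the replicate block, 28 members rose and 12 fell, and all 6 changed calls are given in the report. Leaving out a library or a same-numbered pair gave 20 to 28 members higher and 6 to 11 lower, 6 to 12 other pathway genes higher and 7 to 18 lower, and, over all genes, 2648 to 5751 higher and 2191 to 5506 lower, with the lowest counts over all genes without the pair numbered 1. The scaling moved the split of calls. Upper-quartile factors shifted the median of all genes by 0.157 and gave 6 members lower, with 64.5% of all calls higher (51.1% in the reported fit), and library totals alone shifted it by 0.116 and gave 60.9%. At an adjusted p under 0.01, 6 other pathway genes were higher. The log2 ratio to SLC2A1 became -1.15 for SLC2A3 with a pseudocount of 1 RPKM and 0.62 for SLC2A12 without division by length, and PFKFB1 to PFKFB3 became -0.73 with a pseudocount of 1 RPKM. Without single libraries, ALDOC to ALDOA ranged from -0.082 to 0.41, and the differences in share from -0.403 to 1.63 percentage points for ALDOC, from -1.63 to 0.403 for ALDOA and from -1.61 to 0.113 for SLC2A10, with the sign changed without normoxia replicate 3 for the aldolases and without normoxia replicate 2 for SLC2A10. With upper-quartile factors the summed hexokinase and phosphoglucomutase levels were 1.04 and 1.02 times normoxia. Without both libraries numbered 3, chosen after seeing the data, 17 isozyme pairs did not overlap and the members' share of counts differed by 1.03 percentage points. Depth limits LDHB, SLC2A3, SLC2A12, PFKFB1, PGAM2 and PPP1R3C. The causes of these shifts were not tested.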
